A study of Xenopus laevis with 4 samples.

Results

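The genes cirbp and midn lie side by side in the Xenopus laevis genome, on chromosome 1L and again on chromosome 1S. X. laevis is allotetraploid, so most genes exist as a long-chromosome (L) and a short-chromosome (S) copy, called homeologs. The 4 features described here, cirbp.L, cirbp.S, midn.L and midn.S, are the table's rows with either name once the .L or .S ending is removed, 4 of 49078 features in all. They were chosen by their measured ratio of EU-RNA to total RNA, which was raised for every homeolog, so that difference is given below as a description and without a test.

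The captured libraries were EU-RNA replicates 1 and 2. They came from embryos that had received, at the 1-cell stage, an injection of 5-ethynyl uridine (EU; 10 nl at 50 mM), a uridine analogue that enters RNA made from then on, and the EU-containing RNA was biotinylated by click chemistry and captured on streptavidin beads. The libraries they are set against, Normal replicates 1 and 2, were made from total RNA of embryos without the injection (total RNA or Normal below) and hold maternal and newly made RNA together. All embryos were kept at room temperature and collected about 9 hours after fertilization, at the mid-blastula transition, when the embryo starts large-scale transcription of its own genome. The groups differ in the capture step and in the injection, and the part of either in any difference cannot be told apart. The labels do not say whether replicates came from separate clutches, so p-values rest on a spread between libraries that may be technical only.

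cirbp encodes the cold-inducible RNA-binding protein, which has an RNA recognition motif (RRM) followed by a glycine- and arginine-rich tail. Its expression rises under mild cold in mammalian cells, and the protein binds mRNAs and alters their stability and translation. In Xenopus it is a maternal protein of the oocyte and early embryo that has been linked to mRNAs of cell adhesion genes and to cell movements at gastrulation. midn encodes midnolin, a protein with a ubiquitin-like domain, first described as a nucleolar protein of the mouse midbrain. In mammalian cells midnolin brings short-lived transcription factors, among them products of immediate early genes, to the proteasome without the need for ubiquitin chains. Immediate early genes are those switched on within minutes of a stimulus, with no new protein needed.

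Library totals ran from 47598265 to 209445802 estimated counts, so each library gave at least 2443 counts to each of the 4 features. As a check of the labelled stage, 10 of 15 tested features of genes switched on at the mid-blastula transition were higher in EU-RNA; their median log2 fold change was 3.18. Of 13 tested features of maternal genes, 2 were higher, both homeologs of vegt, and 1 was lower, h1foo.L. The median log2 fold change of the 13 was -0.36. Among all 26543 tested features, 4.69% were called higher and 0.889% lower. Of 16 features of differentiated tissues, 10 had 0 counts in all libraries. The summed level of the 16 was 27.5 and 19.5 CPM in EU-RNA against 3.87 and 3.99 CPM in Normal. In EU-RNA most of it came from ins.L. Of the 3 features tested, ins.L was called higher (log2 fold change 3.57, edgeR adjusted p = 0.0209) and none was called lower. These calls are from the quasi-likelihood test of edgeR at a Benjamini-Hochberg adjusted p under 0.05. Levels throughout are TMM-scaled CPM, that is, each count is set relative to its library's total and adjusted by a factor that places the average transcript at about no change, and are not divided by transcript length. Levels of different genes are therefore not compared. A fold change gives the position of a transcript in the captured fraction relative to the average transcript, not an amount of new RNA.

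Both cirbp homeologs were higher in the captured RNA than in total RNA. cirbp.L stood at 1592 and 1201 CPM in EU-RNA, against 342 and 334 CPM in Normal. Both EU-RNA libraries lay far above both total RNA libraries, and the EU-RNA libraries themselves differed by 32.5% while the total RNA libraries differed by 2.59%. The means were 1396 ± 276 CPM in EU-RNA and 338 ± 6.11 CPM in Normal (SD, n = 2 each), a fitted log2 fold change of 2.05, or 4.13-fold. Taking each EU-RNA library over each total RNA library, the ratio ran from 3.51 to 4.77.

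cirbp.S stood at 1015 and 706 CPM in EU-RNA, against 331 and 329 CPM in Normal. The groups again did not overlap, which the choice of the members favoured, and EU-RNA replicate 1 was again the higher of the captured libraries. The means were 861 ± 218 CPM in EU-RNA and 330.0 ± 1.62 CPM in Normal (SD, n = 2 each), a log2 fold change of 1.38, or 2.61-fold. In total RNA the cirbp homeologs were nearly level, with cirbp.S slightly below cirbp.L in each library, whereas cirbp.L was the higher of the pair in both EU-RNA libraries.

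midn showed the same direction from lower counts. midn.L stood at 208 and 170 CPM in EU-RNA, against 55.0 and 66.9 CPM in Normal. Replicates differed by 22.7% in EU-RNA and 21.6% in total RNA, which is small beside the distance between the groups. The means were 189 ± 27.2 CPM in EU-RNA and 60.9 ± 8.40 CPM in Normal (SD, n = 2 each), a log2 fold change of 1.63, with library-to-library ratios of 2.54 to 3.79.

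midn.S stood at 177.3 and 176.9 CPM in EU-RNA, against 93.2 and 80.5 CPM in Normal. It had the closest EU-RNA replicates of the 4 features and the smallest difference between the groups. The means were 177.1 ± 0.233 CPM in EU-RNA and 86.8 ± 9.01 CPM in Normal (SD, n = 2 each), a log2 fold change of 1.03, or 2.04-fold, with library-to-library ratios of 1.90 to 2.20.

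**Figure D1:**
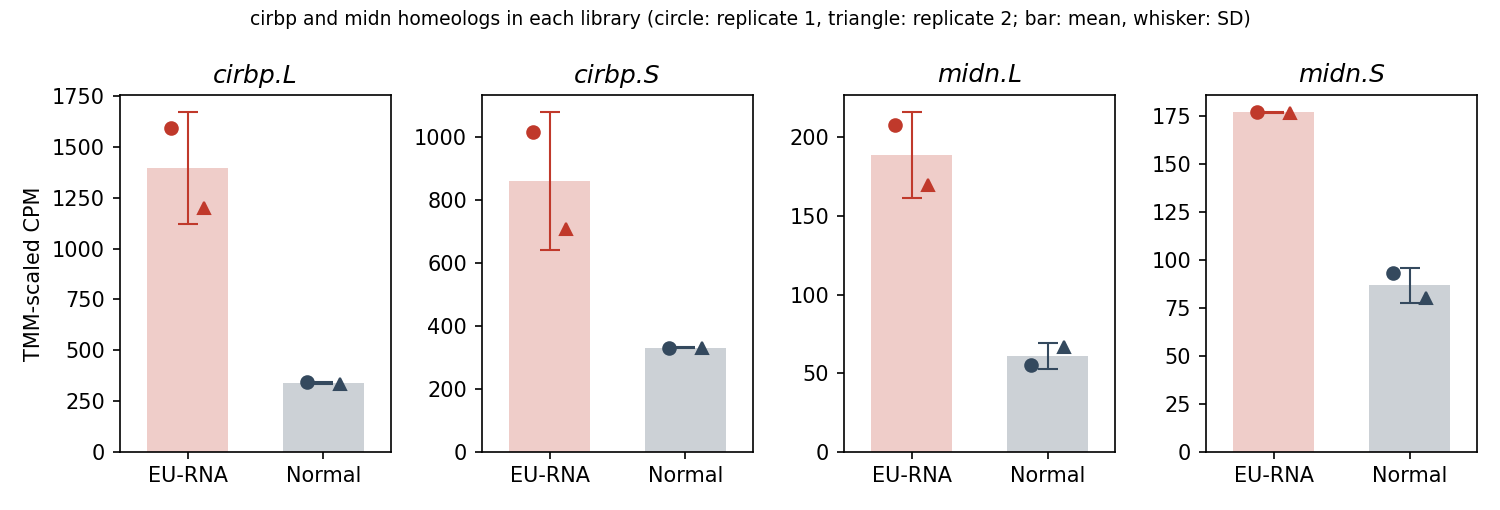
TMM-scaled CPM (vertical axes, starting at 0) of the 4 features in EU-RNA (left bar of each panel) and Normal, total RNA (right bar). Circles are replicate 1, triangles replicate 2, bars the mean and whiskers the SD of 2 libraries. In every panel both EU-RNA points lie above both Normal points, which the choice of the members for this contrast favoured. How many of all features separate in this way was not counted. The widest gap between replicates in percent is that of cirbp.S in EU-RNA, 43.7%.

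Summed over homeologs, cirbp reached 2607 and 1907 CPM in EU-RNA and 674 and 663 CPM in Normal, 3.38-fold higher by the means. Summed midn reached 385 and 347 CPM in EU-RNA and 148 and 147 CPM in Normal, 2.48-fold higher. Together the 4 features held 0.314% and 0.256% of all estimated counts in EU-RNA, against 0.0767% and 0.0724% in total RNA.

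Over the whole table, 26543 features passed the filter on low counts, all 4 members among them. Of these, 1246 were called higher in EU-RNA, which is 4.69%, and 236 lower, which is 0.889%. Higher and lower calls numbered 3282 and 3171 with EU-RNA replicate 1 left out, 4577 and 5218 with EU-RNA replicate 2 left out, and 1197 and 151 with Normal replicate 1 left out. All 4 members are among the higher calls, and their direction follows from the way they were chosen. The share of higher calls was larger among features with a high average over the 4 libraries, where the members lie. That average includes the EU-RNA libraries, so a feature high in EU-RNA reaches a given level more readily. By mean Normal level the members ranked 133 (cirbp.L), 145 (cirbp.S), 1835 (midn.S) and 2933 (midn.L) among all features. The share at levels set by total RNA alone was not examined. Of the 1214 features at or above the average log2 CPM of midn.L (6.97), 367 were called higher, which is 30.2%, and 29 lower. Ordered by log2 fold change within those 1214, cirbp.L was at position 202, midn.L at 283, cirbp.S at 326 and midn.S at 390. These positions follow from the choice of the members and are a description; the median log2 fold change of the 1214 was 0.22.

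**Figure D2:**
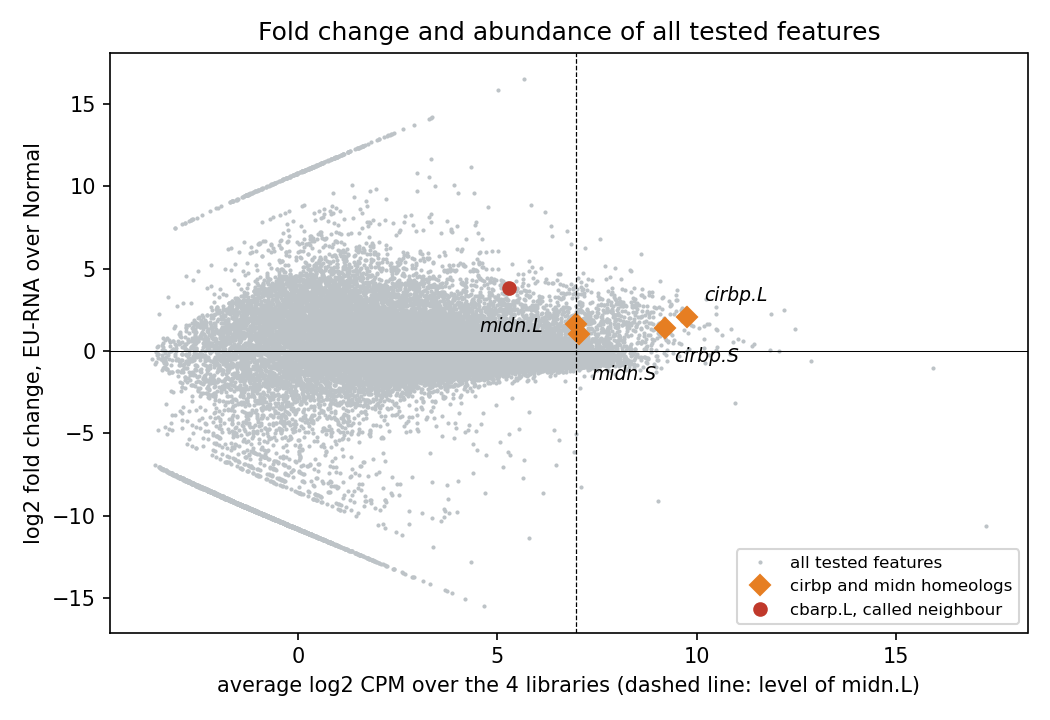
Log2 fold change of EU-RNA over Normal (vertical axis) against average log2 CPM over the 4 libraries (horizontal axis) for all tested features (grey), the 4 cirbp and midn homeologs (orange diamonds) and cbarp.L (red circle). The dashed line marks the average level of midn.L, 6.97; to its right 367 of 1214 features were called higher, and the 4 diamonds lie between 1.03 and 2.05 on the vertical axis.

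In both genes the L homeolog had the larger EU-RNA excess, and this can be read within each library, where both homeologs share depth and scaling. Reads that fit both homeologs were divided between them by Salmon's estimate, so the share of either copy is uncertain to an extent that the table does not show. cirbp.L held 61.1% and 63.0% of the cirbp counts in the EU-RNA libraries, against 50.8% and 50.4% in the total RNA libraries. The captured libraries were thus tilted to the L copy by 11.4 percentage points relative to total RNA, where the copies were close to even. The widest of these 95% exact binomial intervals, that of Normal replicate 1, ran from 50.3% to 51.4%.

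For midn the L copy held 54.0% and 49.0% of counts in the EU-RNA libraries, against 37.1% and 45.4% in the total RNA libraries. The EU-RNA libraries lay on either side of even, while both total RNA libraries had more midn.S than midn.L counts. The means were 51.5% ± 3.58 in EU-RNA and 41.2% ± 5.86 in total RNA (SD, n = 2 each), 10.2 points apart. The groups did not overlap, but the total RNA libraries (37.1% and 45.4%) were further apart than the nearest libraries of the groups (49.0% and 45.4%). Whether the shares differ between the groups was not tested. The replicates of midn differed from each other by more than those of cirbp, and by more than counting error allows. Binomial intervals cover counting error only.

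**Figure D3:**
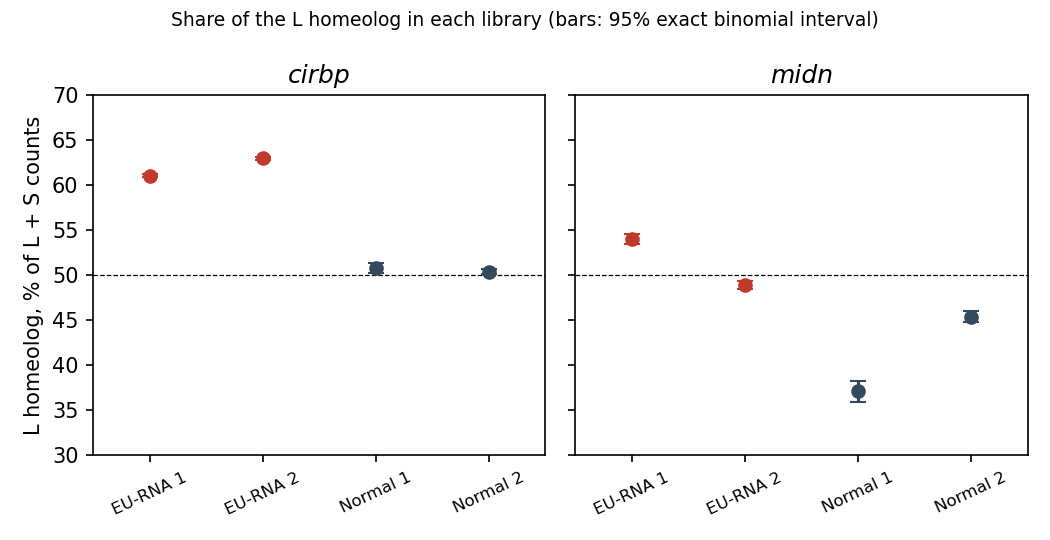
Counts of the L homeolog as a percentage of L and S counts together (vertical axis, 30 to 70%) in each of the 4 libraries, for cirbp (left) and midn (right). Bars are 95% exact binomial intervals and the dashed line marks equal counts; the EU-RNA points (red) lie above the Normal points (dark) for both genes, at 61.1% and 63.0% against 50.8% and 50.4% for cirbp.

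Gaps of this size were common among all tested homeolog pairs. These pairs include features with low counts, and pairs as abundant as the members were not compared separately. Of 4523 homeolog pairs with both copies tested, 136 had both copies called higher, which is 3.01%, and 283 had 1 copy called higher. The median absolute difference between the log2 fold changes of L and S was 0.79 over all pairs. It was 0.66 for cirbp and 0.60 for midn, and 43.9% and 40.0% of the pairs had a smaller gap than these.

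The ratio of cirbp to midn counts within a library was compared between libraries only, and is not a level of one gene against the other. The part of transcript length in counting cancels in that comparison. Any part of length in the capture would not cancel and was not tested. On chromosome 1L there were 7.65 and 7.08 cirbp counts for each midn count in EU-RNA, against 6.23 and 4.99 in total RNA. On chromosome 1S there were 5.73 and 3.99 in EU-RNA, against 3.55 and 4.09 in total RNA. The groups did not overlap on 1L and overlapped on 1S. On 1L, however, the total RNA libraries were further apart (6.23 and 4.99) than the nearest libraries of the groups (7.08 and 6.23). Fitted log2 fold changes were 2.05 for cirbp.L and 1.63 for midn.L, and 1.38 for cirbp.S and 1.03 for midn.S. Whether the relative gain of cirbp over midn differs between the chromosomes was not tested.

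The genes around the pair were not among the chosen features, although the neighbour rule was set with earlier results of these data known. Their differences were tested in the fit over all 26543 features. The question was whether the EU-RNA excess extended along the chromosome. Taking the 10 nearest protein-coding genes on each side, in the gene order of RefSeq assembly Xenopus_laevis_v10.1, 32 of 40 neighbours matched a feature of the table by symbol or listed synonym and 28 passed the filter on low counts. edgeR called 1 of the 28 higher and none lower, where 4.69% and 0.889% of all tested features were called higher and lower. At an unadjusted p below 0.05, 2 of the 28 were higher and 2 lower, and DESeq2 and limma-voom also called 1 higher and none lower. With EU-RNA replicate 1 left out, edgeR called 1 neighbour higher and 3 lower. With EU-RNA replicate 2 left out, it called 3 neighbours higher and 4 lower. The median log2 fold change of the 28 was -0.29, against 0.01 for all tested features.

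The neighbour called higher was cbarp.L, the second gene beyond midn.L, which encodes a regulator of voltage-gated calcium channels. It stood at 66.0 and 80.9 CPM in EU-RNA, against 5.72 and 4.71 CPM in Normal. The groups were far apart, at a log2 fold change of 3.82 (SE 0.29, adjusted p = 0.00375 by edgeR), higher in 2 of 2 EU-RNA libraries and by more than either member on the same chromosome. cbarp.S did not match a feature and is not analysed here.

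Between midn.L and cbarp.L lies atp5f1d.L, which encodes the delta subunit of the mitochondrial ATP synthase and for which no difference was called. It stood at 2.42 and 9.96 CPM in EU-RNA, against 8.51 and 7.15 CPM in Normal. The groups overlapped, with a log2 fold change of -0.34 (SE 0.90, adjusted p = 0.877 by edgeR). Its S homeolog had a log2 fold change of -0.25 (SE 1.24, adjusted p = 0.938 by edgeR). The SEs leave room for a sizeable difference in either direction.

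Beyond cbarp.L follows stk11.L, which encodes the kinase LKB1, known in Xenopus as XEEK1. It stood at 24.1 and 12.7 CPM in EU-RNA, against 44.4 and 35.5 CPM in Normal. Both EU-RNA libraries were lower, but the difference did not pass (log2 fold change -1.12, SE 0.39, edgeR adjusted p = 0.162). It was called lower in 3 of 10 alternatives: by edgeR with no filter (-1.11, adjusted p = 0.0331), with EU-RNA replicate 1 left out (-1.72, adjusted p = 7.94e-07) and with EU-RNA replicate 2 left out (-0.78, adjusted p = 0.0234); over all alternatives its adjusted p ran from 7.94e-07 to 0.842. stk11.S, at 20.5 and 11.5 CPM in EU-RNA and 17.8 and 22.2 CPM in Normal, overlapped between the groups.

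cnn2.L, a calponin gene of the actin cytoskeleton, had the largest positive log2 fold change among the neighbours that did not pass, 1.89 (SE 0.80, edgeR adjusted p = 0.216). It stood at 34.3 and 6.99 CPM in EU-RNA, against 5.76 and 5.36 CPM in Normal. The excess came from EU-RNA replicate 1, and replicate 2 was close to total RNA; the log2 fold change was 2.58 with replicate 2 left out (adjusted p = 5.47e-08 by edgeR) and 0.27 with replicate 1 left out (adjusted p = 0.817). Further out, arhgap45.L had 0 and 1 counts in EU-RNA and 39 and 162 counts in total RNA and did not pass either (edgeR adjusted p = 0.174).

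On the midn side the remaining tested neighbours of 1L had log2 fold changes of 0.04 for polr2e.L, an RNA polymerase II subunit gene, 0.31 for gpx4.L, a lipid peroxide-reducing enzyme gene, -0.55 for the transcriptional coregulator gene sbno2.L, 0.53 for tmem259.L and -0.75 for LOC108696057. On 1S they were -0.32 for stk11.S (SE 0.43), 0.17 for arhgap45.S (SE 1.32) and -1.07 for polr2e.S (SE 0.44). The others of 1S were -0.86 for gpx4.S (SE 1.68) and 1.04 for LOC108704674 (SE 2.79). None of these passed by edgeR's test with Benjamini-Hochberg adjustment. With EU-RNA replicate 2 left out, sbno2.L (-1.68) and polr2e.S (-1.23) were called lower. With EU-RNA replicate 1 left out, sbno2.L gave 0.0028, and gpx4.S gave -4.96 and was called lower.

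On the cirbp side the nearest genes gave no value. On 1L, LOC121393399 and fam174c.L did not match a feature, and efna2.L, an ephrin gene, and LOC108712576 had 0 counts in all libraries. On 1S, efna2.S did not match. The first tested neighbours were ndufs7.L and ndufs7.S, which encode a subunit of mitochondrial complex I, with log2 fold changes of 0.18 (SE 0.56) and -0.72 (SE 0.52). The creatine synthesis gene gamt followed at -0.40 for gamt.L and -0.13 for gamt.S.

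dazap1.S, which encodes another RNA-binding protein, stood at 139 and 100.1 CPM in EU-RNA, against 79.0 and 74.4 CPM in Normal. Both EU-RNA libraries were higher, but the difference did not pass (log2 fold change 0.64, SE 0.23, edgeR adjusted p = 0.162). With EU-RNA replicate 2 left out it was called higher (0.81, edgeR adjusted p = 0.000486), and with EU-RNA replicate 1 left out it gave 0.33 (edgeR adjusted p = 0.290). dazap1.L had a log2 fold change of 0.02 (SE 0.22). The ribosomal protein gene rps15 gave -0.72 for rps15.L and 0.12 for rps15.S. With EU-RNA replicate 1 left out, rps15.L gave -3.03 and was called lower, and with EU-RNA replicate 2 left out it gave 0.071. The outermost tested genes of 1S included the peptidase gene thop1.S at 0.10 and the cochaperone gene sgta.S at -0.88. The zinc transporter gene slc39a3.S gave -0.79 and LOC108704666 gave -0.65. The value of sgta.S rested on 1 library: it was -3.16 with EU-RNA replicate 2 left out, where it was called lower (edgeR adjusted p = 4.92e-07), and -0.087 with EU-RNA replicate 1 left out (edgeR adjusted p = 0.889).

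**Figure D4:**
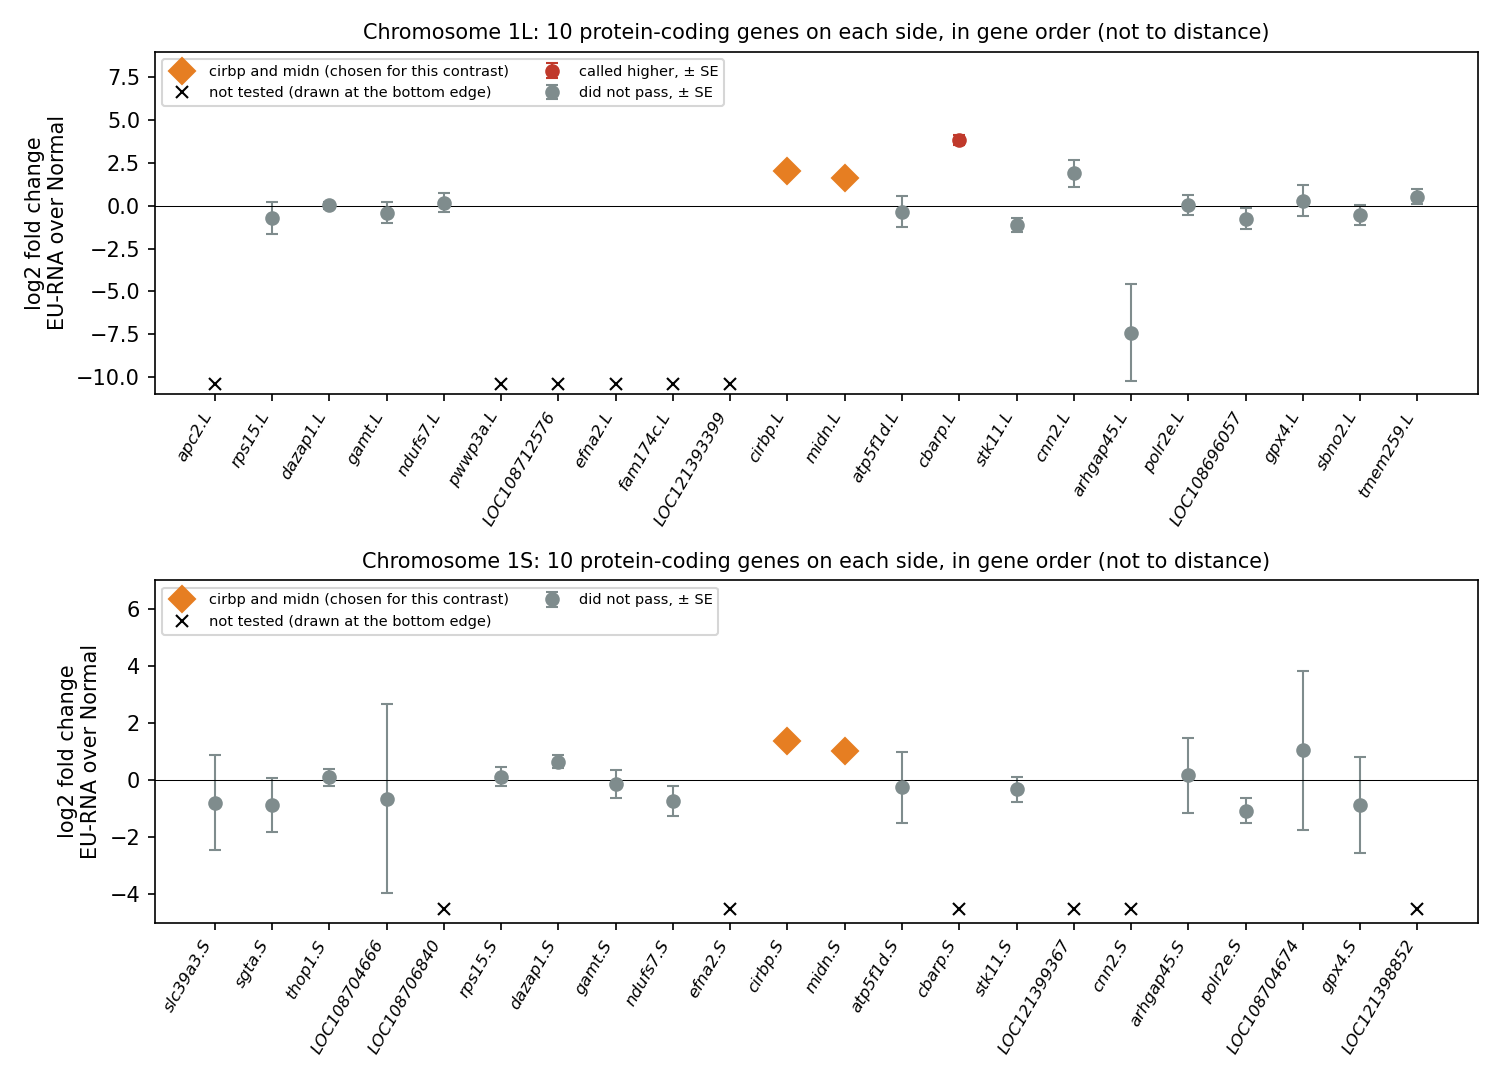
Log2 fold change of EU-RNA over Normal (vertical axis) for cirbp, midn and the 10 protein-coding genes on each side in gene order (horizontal axis, not to distance) on chromosome 1L (top) and 1S (bottom). Orange diamonds are the members, circles are tested neighbours with their SE (red where called), and crosses mark genes with no test; cbarp.L, at 3.82, is the only red circle among 28.

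Genes were ordered by their annotated starts in that assembly, and whether the spans of cirbp and midn overlap was not examined. On 1L a long non-coding RNA gene, LOC108696040, comes between them in this order, and on 1S no gene does. LOC108696040 had 0 and 177 counts in EU-RNA and 0 and 9 counts in total RNA, and was below the filter. Because the sources used here do not name the assembly used for counting, only the order is used and no positions are given. Whether reads were assigned by strand is not given either.

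Across the genome, 10963 pairs of adjacent protein-coding genes had both genes tested, and in 82 of them, 0.748%, both were called higher. Of 1059 adjacent pairs tested on both the L and the S chromosome, all copies were called higher in 6, which is 0.567%. One of these is cirbp with midn, which were chosen for their raised ratio. The others are admp with pnhd, secreted factors of the early embryo, bix1.1 with mix1 and mix1 with mixer, homeobox genes of mesoderm and endoderm, sox17a with sox17b, endoderm transcription factor genes, and ventx1.2 with ventx3.2, homeobox genes of the ventral side. In the admp pair the log2 fold changes were 4.02 for admp.L, 3.51 for admp.S, 3.11 for pnhd.L and 1.63 for pnhd.S. Apart from admp with pnhd and cirbp with midn, the pairs join related genes of a tandem cluster, whose reads may be shared.

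Features whose profile over the 4 libraries was most like that of a member were found by the Euclidean distance between log2(CPM + 1) values, each centred on its own mean, among 10053 symbol-bearing features whose log2 CPM averaged 3 or more. Nearest to cirbp.L were eef1a1.S, a translation elongation factor gene (distance 0.07), the Notch ligand gene jag1.L (0.09), esr-5.L (0.11), the splicing factor gene tra2a.L (0.11) and slc25a17.L (0.13). Nearest to cirbp.S were plekhn1.L (0.03), mosmo.S (0.04), the nuclear RNA-binding protein gene hnrnpu (0.05), the repressor gene rest.S (0.05) and dazap2.S (0.06). hnrnpu stood at 2403 and 1681 CPM in EU-RNA and 816 and 805 CPM in Normal, so it shared with cirbp.S the higher value in EU-RNA replicate 1.

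Nearest to midn.L were the kinase gene tesk2.L (0.03), pfkfb3.S, a regulator of glycolysis (0.06), csgalnact2.L (0.08), wdr83os.L (0.10) and khdrbs1.S (0.10). Nearest to midn.S were rabgap1l.S (0.07), noc4l.S (0.08), tm2d2.L (0.09), sh3rf1.L (0.10) and dnajc16.L (0.10). Among the members the closest were cirbp.S and midn.L, at 0.37, and the farthest cirbp.L and midn.S, at 1.05. Members were left out of the candidates. None would have been among another's nearest features, since each of these was closer than 0.13. With 4 libraries in 2 groups such distances reflect mainly the size of the difference between the groups.

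Lists of genes with a known tie to either protein were followed in the same fit. Among relatives of cirbp with an RRM, 2 of 16 tested features were called higher and none lower, and the median log2 fold change was -0.11. Of all tested features 4.69% were called higher and 0.889% lower. Those at or above the average log2 CPM of midn.L, as both called features were, gave 30.2% and 2.39%. That average includes the EU-RNA libraries, so features high in EU-RNA reach it more readily. The list also holds features below that level and was not split by it. The 2 were the homeologs of rbmx, a nuclear RNA-binding protein gene with a glycine-rich region. rbmx.L stood at 477 and 363 CPM in EU-RNA, against 150.1 and 127 CPM in Normal (log2 fold change 1.60, SE 0.23, edgeR adjusted p = 0.0152). rbmx.S stood at 562 and 368 CPM in EU-RNA, against 127 and 151 CPM in Normal (log2 fold change 1.74, SE 0.27, edgeR adjusted p = 0.0194). Both were higher in 2 of 2 EU-RNA libraries. rbm38.S (1.06, edgeR adjusted p = 0.0939) and rbm24.S (0.66, edgeR adjusted p = 0.221) did not pass. Their L homeologs had log2 fold changes of -0.06 (rbm38.L, SE 0.23) and 0.22 (rbm24.L, SE 0.41). rbm38.S was called by DESeq2 (adjusted p = 0.0259) and in 4 of the other alternatives, and rbm24.S in 1, with EU-RNA replicate 1 left out (edgeR adjusted p = 0.00455). At an unadjusted p below 0.05, 3 were higher and none was lower, and DESeq2 and limma-voom called none lower. Leaving out EU-RNA replicate 1 gave 4 higher and 2 lower, and leaving out EU-RNA replicate 2 gave 3 higher and 2 lower. rbm3, the closest mammalian relative, did not match a feature and is not analysed here.

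Among genes of cirbp's partners and reported target mRNAs, 3 of 23 tested features were called higher and none lower, with a median of 0.13. All tested features gave 4.69% and 0.889%, and those at or above the average log2 CPM of midn.L 30.2% and 2.39%. That average again includes the EU-RNA libraries. The list also holds features below that level, cdh1.S among them, and was not split by it. Of the 3 called higher, 2 are the homeologs of prmt1, the arginine methyltransferase that modifies the cirbp protein in Xenopus. prmt1.S stood at 579.5 and 478 CPM in EU-RNA, against 185 and 181 CPM in Normal (log2 fold change 1.53, SE 0.20, edgeR adjusted p = 0.0115). prmt1.L stood at 498 and 422 CPM in EU-RNA, against 185 and 163 CPM in Normal (1.40, SE 0.20, edgeR adjusted p = 0.0158). The E-cadherin gene cdh1.S was the third, at 92.1 and 66.5 CPM in EU-RNA against 27.6 and 26.4 CPM in Normal (1.55, SE 0.25, edgeR adjusted p = 0.0245). All 3 were higher in 2 of 2 EU-RNA libraries. cdh1.L had 0 and 116 counts in EU-RNA and 0 and 119 counts in total RNA. ctnnb1.S, a beta-catenin gene, had a log2 fold change of 0.74 and did not pass (edgeR adjusted p = 0.0898), although DESeq2 (adjusted p = 0.000179) and limma-voom (adjusted p = 0.0197) called it; over all alternatives its adjusted p ran from 7.84e-05 to 0.645. elavl1, the gene of an mRNA-stabilising protein, gave 0.15 for elavl1.S and -0.15 for elavl1.L. At an unadjusted p below 0.05, 7 features of the list were higher and 1 lower, and DESeq2 called 1 lower and limma-voom none. Leaving out EU-RNA replicate 1 gave 4 higher and 3 lower, leaving out EU-RNA replicate 2 gave 7 higher and 3 lower, and DESeq2 called 7 higher.

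Genes whose proteins are carried to the proteasome by midnolin in mammalian cells had a median log2 fold change of 1.65 over 11 tested features, against 0.01 over all tested features. edgeR called 2 of the 11 higher and none lower, where it called 4.69% and 0.889% of all features. The 2 were the homeologs of egr1, an immediate early transcription factor gene. egr1.S stood at 50.2 and 52.3 CPM in EU-RNA, against 8.46 and 12.3 CPM in Normal (log2 fold change 2.30, SE 0.32, edgeR adjusted p = 0.0141). egr1.L stood at 45.3 and 44.2 CPM in EU-RNA, against 12.3 and 13.7 CPM in Normal (1.79, SE 0.28, edgeR adjusted p = 0.0207). Both were higher in 2 of 2 EU-RNA libraries, and the call of egr1.L was lost without Normal replicate 1 (edgeR adjusted p = 0.0663; over all alternatives it ran from 1.28e-06 to 0.0663).

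ier2.S (1.54, edgeR adjusted p = 0.0518) and fos.L (5.42, edgeR adjusted p = 0.0809) had positive values that did not pass. ier2.S was called in 8 of 10 alternatives, among them DESeq2 (adjusted p = 0.00256) and limma-voom (adjusted p = 0.0399); its adjusted p ran from 1.75e-05 to 0.225. fos.L was called in 3, by DESeq2 (adjusted p = 1.33e-05), by edgeR with no filter (adjusted p = 0.0122) and by edgeR with EU-RNA replicate 2 left out (adjusted p = 8.25e-07), in a range up to 0.282. fos.L had 1052 and 574 counts in EU-RNA and 11 and 27 counts in total RNA. Its homeolog fos.S stood at 2.02 and 8.99 CPM in EU-RNA, against 1.98 and 1.36 CPM in Normal (1.72, SE 1.30). ier2.L gave 1.65 (SE 0.52) and fosb.S gave 0.14 (SE 0.55), and none of these passed. neurod1.L, a neuronal factor gene, had 0 and 0 counts in EU-RNA and 65 and 88 counts in total RNA and did not pass. At an unadjusted p below 0.05, 6 features of the list were higher and 1, neurod1.L, lower; DESeq2 called 1 lower and limma-voom none. Without Normal replicate 1 the count of higher features was 1, and without either EU-RNA replicate it was 5.

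The proteasome itself, to which midnolin binds, showed no calls in edgeR's test, 0 higher and 0 lower of 65 tested features, where 4.69% and 0.889% of all features were called, at a median log2 fold change of -0.27. At an unadjusted p below 0.05, 1 was higher and 6 were lower, DESeq2 called 3 lower, and limma-voom called none in either direction. psme4.L, a proteasome activator gene, had the smallest p, at 32.1 and 39.3 CPM in EU-RNA against 72.9 and 66.5 CPM in Normal (-0.97, SE 0.23, edgeR adjusted p = 0.0736). psmb1.S (-0.90, edgeR adjusted p = 0.110), psmd2.L (-1.16, edgeR adjusted p = 0.132) and psmd12.S (-0.70, edgeR adjusted p = 0.152) followed. Each of these 4 was called lower with either EU-RNA replicate left out, and all but psmd12.S by DESeq2 (adjusted p from 0.0104 to 0.0477). Leaving out EU-RNA replicate 1 gave 13 lower calls, and leaving out EU-RNA replicate 2 gave 14 lower and 2 higher. A list of genes flanking the human pair held neighbours described above together with sbno2.S (0.40) and mum1.L (0.57), which did not pass by edgeR; mum1 is an older name of pwwp3a, and the neighbour pwwp3a.L had not matched by symbol or listed synonym. Of 22 tested features of that list 1, cbarp.L, was higher and none lower, against 4.69% and 0.889% of all features. At an unadjusted p below 0.05, 2 were higher and 2 lower, and DESeq2 and limma-voom called none lower. That list had 1 higher and 3 lower calls with EU-RNA replicate 1 left out, and 2 higher and 3 lower with EU-RNA replicate 2 left out.

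**Figure D5:**
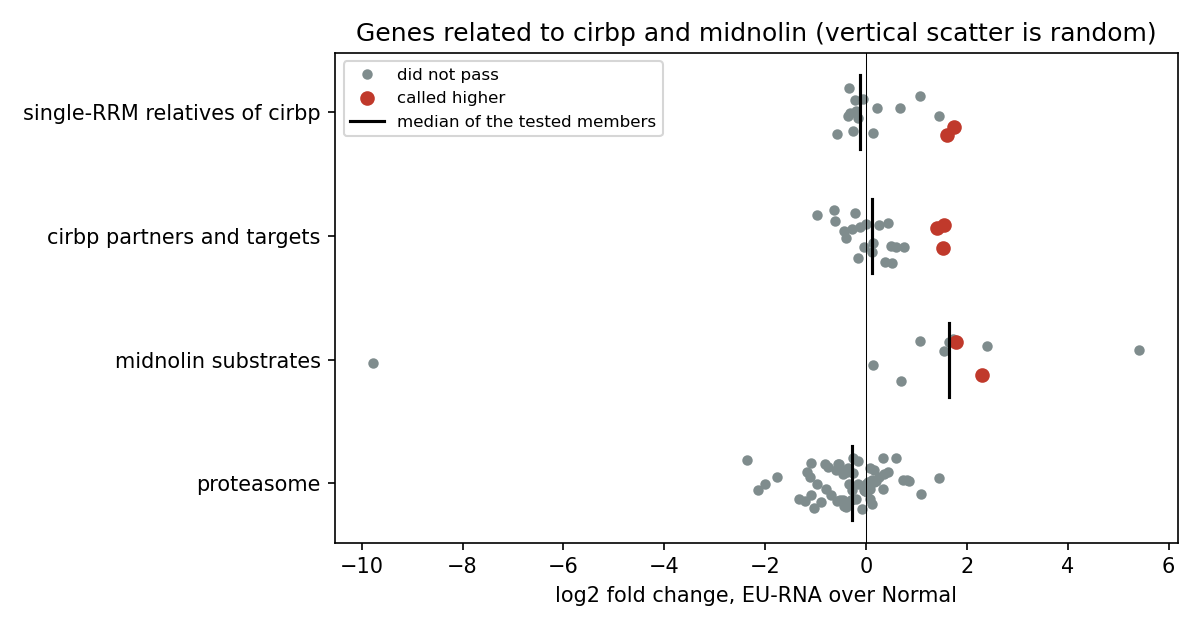
Log2 fold change of EU-RNA over Normal (horizontal axis) for each tested feature of the 4 lists (rows). Red points were called higher by edgeR's test, grey points did not pass, and black lines mark medians of -0.11, 0.13, 1.65 and -0.27 from top to bottom. The vertical scatter within a row is random.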

How the data were processed

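The authors deposited estimated counts (whole numbers, a column per library, 4 libraries, genes in rows). Tools named in the submitters' processing notes are bcl2fastq and Salmon 0.12.0, and the file's name refers to tximport. Transcript set, genome build, length scaling and strand setting are not given in the sources used here. No per-sample column was left unused.

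The counts were fitted with edgeR 4.0.16 in R 4.3.3 (quasi-likelihood test, TMM scaling, filterByExpr, group as the only term, Benjamini-Hochberg adjustment over 26543 tested features, threshold 0.05). DESeq2 1.42.0 and limma 3.58.1 (voom) were alternatives. The fits were tested on simulated data. An SE is the log2 fold change over the square root of F.

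Library totals were 81201990 and 117849586 for EU-RNA and 47598265 and 209445802 for Normal. Members, lists, neighbour rule and alternatives were chosen with earlier results of these data known. Named are the members, every tested neighbour, up to 4 features per list with the smallest p, and the 5 features most like each member; other names were chosen after their values were seen. Gene order came from RefSeq Xenopus_laevis_v10.1, matched by symbol or synonym. A gene of one list is not reported here.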

Additional observations from a re-analysis of the deposited data

How the results depend on the processing

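The 4 members kept a positive log2 ratio under all alternatives run, within 1.73 to 2.30 for cirbp.L, 1.04 to 1.73 for cirbp.S, 1.28 to 1.89 for midn.L and 0.93 to 1.29 for midn.S. Summing homeologs before the fit gave 1.73 for cirbp and 1.28 for midn, which moved cirbp.L, midn.L and midn.S by more than the replicate spread. These sums set the low ends for cirbp.L and midn.L and the high end for cirbp.S. Counts of the homeolog alone gave at least 1.77 for cirbp.L, at most 1.63 for cirbp.S and at least 1.43 for midn.L. Scaling by library size only gave 1.29 for midn.S, and the plain ratio of means gave 1.28. The median of all tested features, 0.01 in the main fit, moved with the setting too. It was 0.28 by library size only, -0.21 by limma-voom, -0.21 without a filter and -0.16 with the replicate block. It was -0.28 without EU-RNA replicate 1, -0.45 without EU-RNA replicate 2, -0.14 without Normal replicate 1 and 0.23 without Normal replicate 2. By DESeq2 it was 0.01.

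No relation between same-numbered libraries was seen in the correlation of deviations (0.0038 over 26543 features). The labels name no pairing, and this value cannot show whether such libraries share a clutch or day. The fit with the replicate block called 1789 features higher and 680 lower, against 1246 and 236, and 1 proteasome feature lower. DESeq2 called 2990 higher and 1879 lower, with 7 partner and target features higher and 1 lower, 6 midnolin substrates higher and 1 lower, and 3 proteasome features lower. Without a filter there were 2488 and 1134, with 2 neighbours higher and 1 lower, 4 midnolin substrates higher, and 1 proteasome feature and 1 human synteny gene lower. limma-voom called 385 lower and library size only 142.

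Leaving out a library, the higher calls ran from 1197 to 4577 and the lower from 151 to 5218. With an EU-RNA library left out, the remaining one is taken to vary as much as Normal libraries do, and more features passed the filter. The ranges of higher and lower calls were 1 to 3 and 0 to 4 for the neighbours, 2 to 4 and 0 to 2 for the RRM relatives, 3 to 7 and 0 to 3 for partners and targets, 1 to 5 and always 0 for midnolin substrates, 0 to 2 and 0 to 14 for the proteasome, and 1 to 2 and 0 to 3 for the human synteny list. cbarp.L stayed called in every alternative, at 3.62 to 4.08 (adjusted p from 6.58e-39 to 0.00493).

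Some neighbours that did not pass changed sign, and no value of the changed sign was called. The low ends of the ranges below for rps15.L, sbno2.L and gpx4.S kept the sign and were called lower. By limma-voom dazap1.L gave -0.057, polr2e.L -0.032, arhgap45.S -0.28 and LOC108704674 -3.17; with the replicate block polr2e.L gave -0.15 and LOC108704674 -2.87; by library size only gamt.S gave 0.12. Leaving out a library, the log2 ratios ran from -3.03 to 0.071 for rps15.L, -0.14 to 0.21 for dazap1.L, -0.21 to 0.49 for ndufs7.L, -1.74 to 0.29 for atp5f1d.L, -0.98 to 0.57 for polr2e.L, -0.066 to 0.82 for gpx4.L, -1.68 to 0.0028 for sbno2.L, -0.23 to 0.28 for thop1.S, -9.04 to 7.93 for LOC108704666, -0.021 to 0.22 for rps15.S, -0.51 to 0.090 for gamt.S, -0.94 to 0.14 for atp5f1d.S, -0.57 to 1.81 for arhgap45.S, -9.73 to 1.99 for LOC108704674 and -4.96 to 0.053 for gpx4.S.

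In an alternative chosen after seeing the data, scaling by library size when computing likeness kept 5 of 5 features for cirbp.L, cirbp.S and midn.S and 4 of 5 for midn.L.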
